A study of Homo sapiens with 6 samples.

Results

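The genes described here are 35 members of the folding and quality-control machinery of the endoplasmic reticulum (ER), the compartment in which secreted and membrane proteins are folded. They were taken from a written list of symbols, which was drawn up with earlier results of these data known. All 35 were found among the 20263 genes of the count table, 1 identifier each. They comprise 8 chaperones and cofactors, 2 lectin chaperones, 10 proteins of disulfide chemistry, 1 secreted stress factor, 3 translocation and export components and 11 proteins of ER-associated degradation (ERAD). RNA was sequenced from MV4-11, a human acute myeloid leukemia line with a KMT2A fusion and an internal tandem duplication of FLT3. All cells were treated for 24 h with 1 of 3 regimens, with 2 libraries each: venetoclax plus cyclosporine A together (VEN+CSA), venetoclax alone (VEN, 100 nM) or cyclosporine A alone (CSA, 2.5 µM). Venetoclax inhibits the survival protein BCL2, and cyclosporine A binds cyclophilins and thereby inhibits calcineurin. The study design also names a control group, which was not analysed here, so each value below sets 1 drug regimen against another. The shared growth protocol in the labels names these 2 doses once and does not repeat them for the combination. Whether the libraries of a group stem from separate cultures is not stated, and the p-values therefore reflect library-to-library spread that may be technical.

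In the ER, nascent chains enter through the SEC61 channel, are held by the HSP70-type chaperone HSPA5 (BiP) and its J-domain partners, receive disulfide bonds from the protein disulfide isomerases and are retained by the lectins calnexin and calreticulin until folded. Chains that fail are pulled back to the cytosol by ERAD, in which EDEM and OS9 proteins read the glycan, SEL1L and the ubiquitin ligase SYVN1 form the core complex, and the Derlins and SELENOS link it to extraction. Many of these genes are targets of the unfolded protein response, whose transcription factors ATF6 and XBP1 bind the ER stress elements ERSE and ERSE-II, while the PERK branch acts through ATF4 and DDIT3 (CHOP).

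The promoters are shown first because ER stress elements are the best known sequence that these genes share. The elements were thus already known in genes of this kind, so their share among the members is a description and no independent result. RefSeq promoter windows (GRCh38.p14, 250 bases before to 50 after each start) were matched by symbol for 31 members with 38 windows; DERL1, PDIA3, DERL3 and SEC24D had none. ERSE was searched on both strands as CCAAT, 9 bases of any kind and CCACG. It was found in 7 of the 31 members (22.6%), against 25 of 27305 genes (0.0916%) in the same table. The 25 include the 7 members. The matches follow 5′ to 3′ on the strand that carries them, with the fixed letters in capitals and the spacer in lower case.
HSPA5, chr9:125241391-125241409, minus strand: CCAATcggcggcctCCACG
HSP90B1 upstream, chr12:103930216-103930234, plus strand: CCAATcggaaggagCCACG
HSP90B1 downstream, chr12:103930321-103930339, minus strand: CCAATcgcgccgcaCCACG
CALR, chr19:12938384-12938402, minus strand: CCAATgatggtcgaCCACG
CANX, chr5:179698778-179698796, plus strand: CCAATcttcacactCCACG
PDIA6, chr2:10812853-10812871, minus strand: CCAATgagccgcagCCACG
ERO1B, chr1:236282183-236282201, plus strand: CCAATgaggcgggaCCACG
CRELD2, chr22:49918554-49918572, minus strand: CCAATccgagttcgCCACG
The outer letters are the same by construction of the search, while the 9-base spacer differed in every copy.

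ERSE-II, searched as ATTGG, 1 base of any kind and CCACG, was found in 3 of the 31 members (9.68%), against 19 of 27305 genes (0.0696%). The 19 include these 3 members. HYOU1 carried 2 copies with the same letters, and HERPUD1 and SDF2L1 carried 1 each.
HYOU1, chr11:119057380-119057390 and chr11:119057274-119057284, plus strand: ATTGGaCCACG
HERPUD1, chr16:56932025-56932035, plus strand: ATTGGgCCACG
SDF2L1, chr22:21642114-21642124, minus strand: ATTGGtCCACG
The shorter letters CCACG, which both elements contain, occurred in 24 of 31 members (77.4%) and in 42.1% of all genes. The core of the unfolded protein response element, TGACGTGG, which contains CCACG on its other strand, was found in DNAJC10 and HYOU1, against 0.927% of all genes. The composite site of CHOP and ATF4, searched as TTGCATCA, was found in HERPUD1 alone among the members, against 1.08% of all genes. A match describes these letters and not a bound site, and a window without a match says nothing about the factor.

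**Figure D1:**
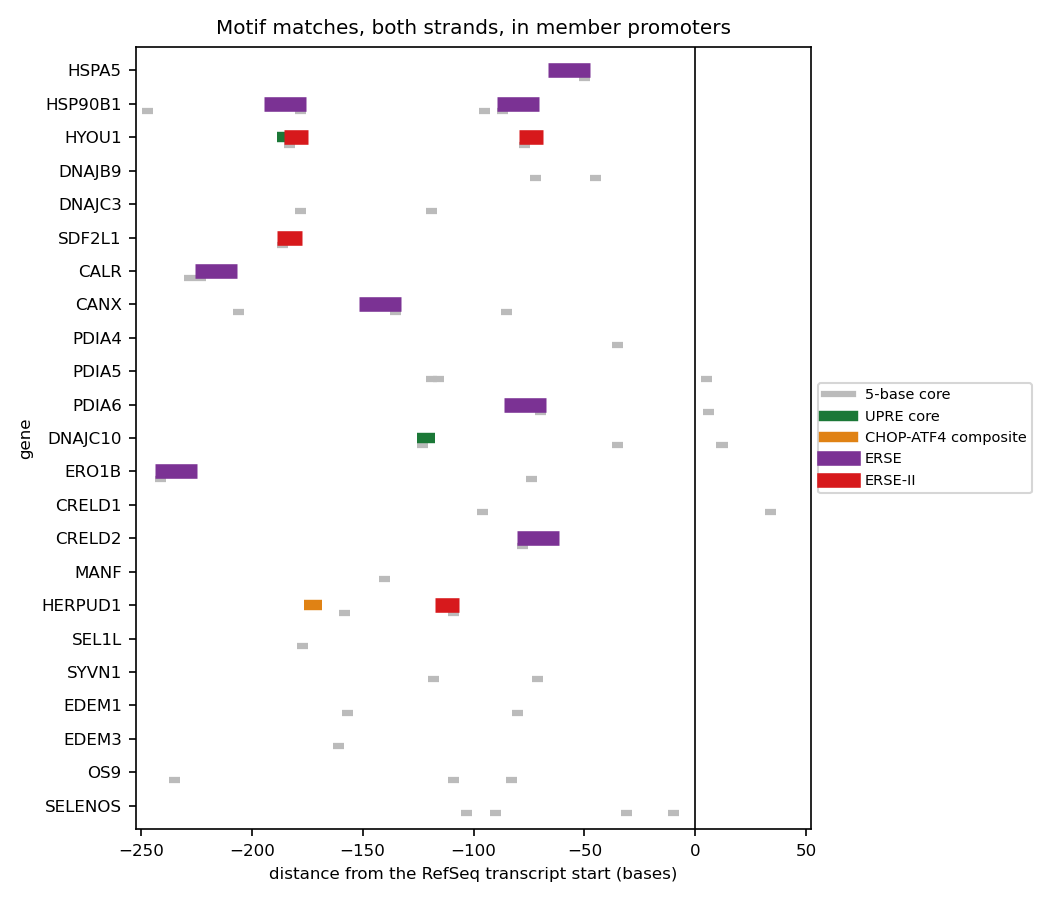
Motif matches on both strands in the promoter windows of members, by distance in bases from the first listed RefSeq start (the second for PDIA6), with members without a match in that window left out. The ERSE and ERSE-II matches of 10 members lie before the start, and DNAJB9 and SELENOS hold only the 5-base core.

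DNAJB9, HYOU1 and SELENOS are the members whose combination libraries stood apart from each single drug at an unadjusted p under 0.05, so the 250 bases before their starts are printed whole, 5′ to 3′ on the gene's strand. In DNAJB9 and SELENOS capitals mark CCACG or, on the other strand, CGTGG. In HYOU1 they mark the ERSE-II copies on the other strand and the TGACGTGG core that overlaps the first of them.
DNAJB9, chr7:108569624-108569873, plus strand: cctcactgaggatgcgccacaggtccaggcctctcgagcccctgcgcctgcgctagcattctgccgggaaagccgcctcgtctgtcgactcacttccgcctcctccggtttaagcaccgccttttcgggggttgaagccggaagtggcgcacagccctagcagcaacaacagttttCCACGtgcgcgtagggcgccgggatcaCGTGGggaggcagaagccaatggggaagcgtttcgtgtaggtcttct
HYOU1, chr11:119057206-119057455, minus strand: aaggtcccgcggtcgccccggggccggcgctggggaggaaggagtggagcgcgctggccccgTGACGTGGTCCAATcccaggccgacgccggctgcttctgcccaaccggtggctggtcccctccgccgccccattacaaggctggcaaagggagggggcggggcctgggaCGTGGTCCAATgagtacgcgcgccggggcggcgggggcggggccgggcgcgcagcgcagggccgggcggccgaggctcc
SELENOS, chr15:101277486-101277735, minus strand: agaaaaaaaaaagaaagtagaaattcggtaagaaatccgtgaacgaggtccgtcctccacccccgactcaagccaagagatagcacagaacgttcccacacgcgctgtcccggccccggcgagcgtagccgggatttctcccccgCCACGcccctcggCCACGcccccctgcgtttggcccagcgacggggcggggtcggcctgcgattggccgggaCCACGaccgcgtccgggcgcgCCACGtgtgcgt
The DNAJB9 stretch held CCACG once on each strand, and the SELENOS stretch held it 4 times on the gene's strand.

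The 6 libraries held between 26567900 and 30738957 counts. The 7 markers of this leukemia (FLT3, CD33, HOXA9, MEIS1, SPI1, LYZ and CSF1R) summed to 1767 to 1922 counts per 1000000 (CPM, scaled for library composition), while T cell and erythroid markers were at 0 in every library, and the B cell and epithelial lists each summed to at most 4.63 CPM. VEN replicate 2 stood apart from the rest. Genes of the mitochondrial genome made up 41.5% of its total, against 8.01% in VEN replicate 1, 8.06% and 15.2% in the VEN+CSA libraries and 7.41% and 9.71% in the CSA libraries. Among the 35 members, the median absolute log2 difference between the libraries of a group was 0.11 for VEN+CSA, 0.35 for VEN and 0.07 for CSA. The log2 ratio of VEN replicate 2 to replicate 1 followed the GC content of the longest transcript with a Spearman rho of -0.68 over the 35 members and -0.58 over 12445 genes, points that share both libraries. The same rho over members was -0.26 for VEN+CSA and -0.30 for CSA. The part of these differences in the results was not tested, so several values that involve VEN are also given without that library. For the other values the effect of leaving it out is not shown.

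Members spanned a wide range of levels. Lengths were those of the longest transcript annotated as principal, or the longest protein-coding one where none was. Per kilobase of that length, averaged over the 6 libraries, the calcium-binding lectin CALR was at 869 CPM and the isomerase P4HB at 529. The ER-resident HSP90 family member HSP90B1 was at 353 and HSPA5 at 253. The oxidase ERO1B was lowest at 0.404 CPM per kilobase, and the J-domain protein DNAJB9 was at 5.03. All 35 passed the filter on low counts, and 12690 genes entered the tests.

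Over the whole list, levels in the combination were on balance higher than with either drug, by small amounts. The mean over the libraries of a group was highest in VEN+CSA for 22 members, in VEN for 6 and in CSA for 7, and it was lowest in VEN for 18. Both VEN+CSA libraries lay above all 4 single-drug libraries for 12 members (HSPA5, HYOU1, DNAJB9, DNAJB11, CANX, PDIA4, MANF, SEC24D, EDEM1, DERL1, DERL2 and SELENOS), against 10.5% of all genes tested. They lay below all 4 for 1 member, SEC61A1, against 9.73% of all genes tested. In bulk RNA, a change in every cell and a change in the share of cells, or fewer cells and less RNA per cell, cannot be told apart.

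**Figure D2:**
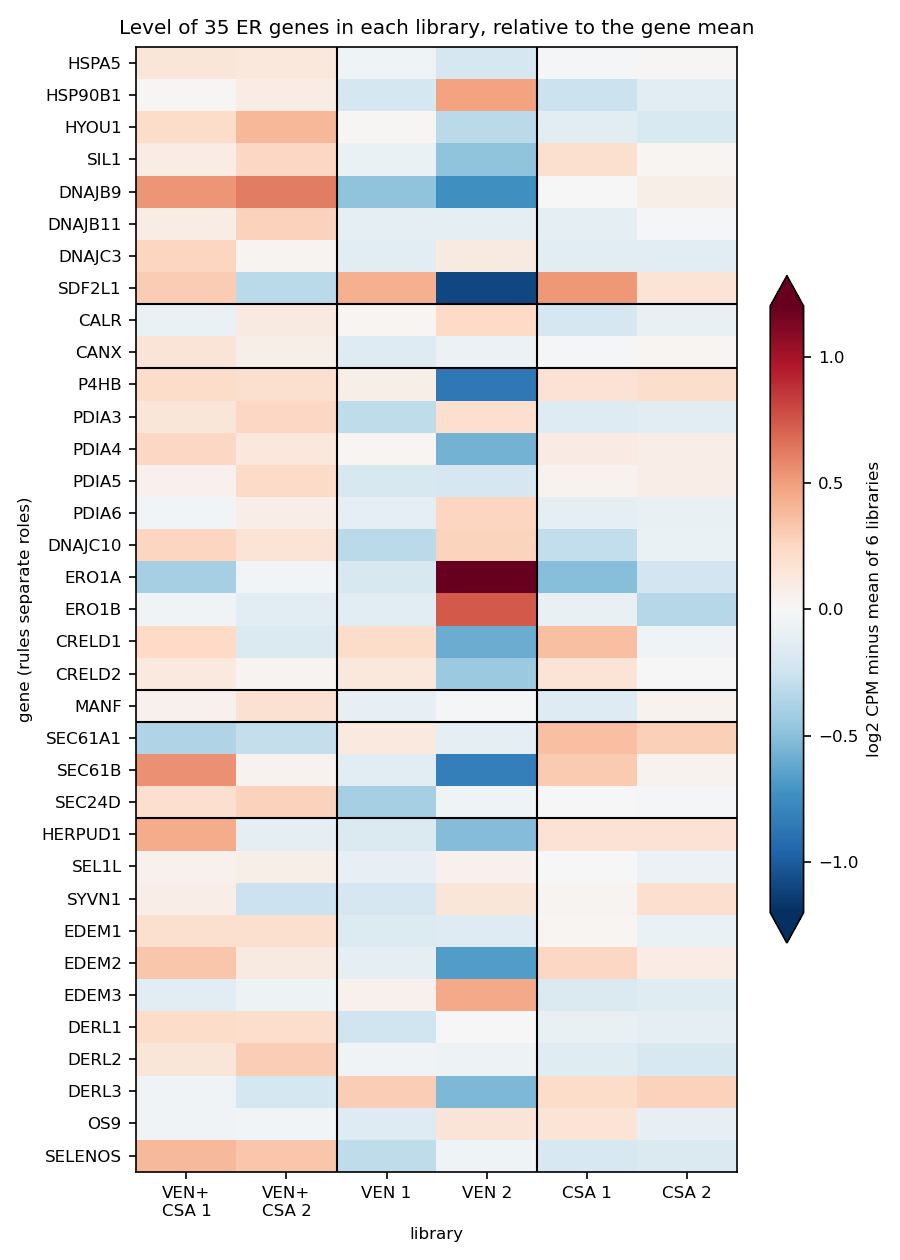
Level of each of the 35 members (rows, black rules between roles) in each library (columns), as log2 CPM minus the mean of the 6 libraries. The VEN+CSA columns are red for most rows and blue for SEC61A1, and VEN replicate 2 departs from VEN replicate 1 in many rows, among them ERO1A, SDF2L1 and P4HB.

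Set against VEN, VEN+CSA was higher for 25 members and lower for 10, and the median over the members was 0.22 on the log2 scale (-0.01 over all genes tested). No member had an adjusted p under 0.05 by edgeR's quasi-likelihood test (0% of genes tested); limma-voom also called 0, while DESeq2 called 1, DNAJB9, against 2.55% of all genes. At an unadjusted p under 0.05, 6 members were higher (DNAJB9, SELENOS, HYOU1, SEC24D, EDEM1 and SEC61B), against 5.33% of all genes, and 0 were lower, against 5.48%. The libraries did not overlap for 18 members higher in VEN+CSA, against 19.2% of all genes, and for 2 lower (SEC61A1 and EDEM3), against 18.9%. Without VEN replicate 2 the count at an adjusted p under 0.05 was again 0, against 0.379% of all genes, and 9 members were higher and 2 lower at an unadjusted p under 0.05, against 8.28% and 7.17%. Without VEN replicate 1, which leaves VEN replicate 2 to stand for the group, 11 members had an adjusted p under 0.05, against 26.4% of all genes, so that the members' share lay near that of the table. The unadjusted count of 6 was 18 without VEN replicate 1, against 43.9% of all genes, and 11 without VEN replicate 2. It was 1 without CSA replicate 1 (5.92% of all genes), CSA replicate 2 (6.04%) or VEN+CSA replicate 1 (4.55%), and 3 without VEN+CSA replicate 2 (4.89%).

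Set against CSA, VEN+CSA was higher for 28 members and lower for 7, with a median log2 fold change of 0.13, against -0.00 over all genes tested. No member passed an adjusted p of 0.05 by edgeR's quasi-likelihood test (0% of genes tested), DESeq2 or limma-voom. At an unadjusted p under 0.05, 3 members were higher (SELENOS, DNAJB9 and HYOU1), against 1.95% of all genes, and SEC61A1 was lower, against 1.69%. The libraries did not overlap for 20 members higher in VEN+CSA, against 23.5% of all genes, and for 2 lower (SEC61A1 and DERL3), against 23.7%. Neither VEN library enters this contrast, but both enter the shared estimate of spread: without VEN replicate 2, 11 members were higher and 2 lower at an unadjusted p under 0.05, against 6.25% and 5.71% of all genes. The unadjusted count of 4 was 13 without either VEN library, against 12% of all genes each time. It was 0 without CSA replicate 1 (1.68% of all genes) or VEN+CSA replicate 1 (2.32%), and 1 without CSA replicate 2 (1.76%) or VEN+CSA replicate 2 (1.92%). The 2 comparisons of VEN+CSA share its libraries, so their values are given side by side and not as support for each other.

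**Figure D3:**
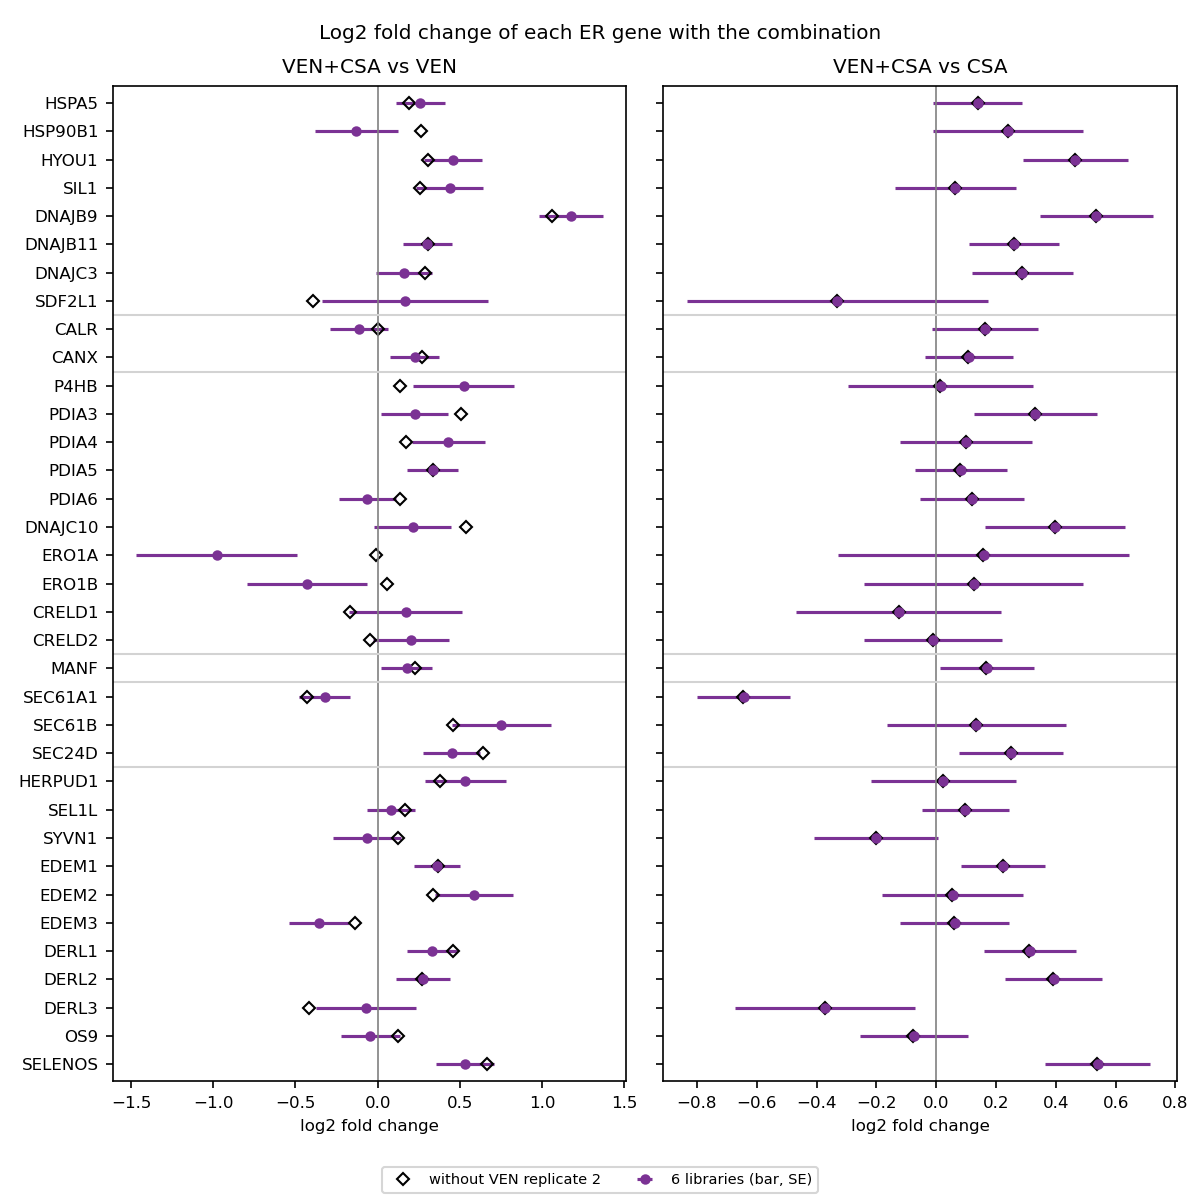
Log2 fold change of each member in VEN+CSA against VEN (left) and against CSA (right), with the standard error of the 6-library fit as a bar and the value without VEN replicate 2 as an open diamond. DNAJB9 has the largest value on the left (1.18), and SEC61A1 lies to the left of 0 in both panels; ERO1A and HSP90B1 are among the members whose left-hand value shifts without VEN replicate 2.

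Among the chaperones, DNAJB9 (ERdj4, chr7:108569568-108574850, plus strand, GRCh38), a J-domain cofactor of HSPA5 that also restrains the sensor IRE1, separated the 3 regimens. Its level was 18.6 and 19.8 CPM in the VEN+CSA libraries, against 9.22 and 7.74 CPM in the VEN libraries and 12.9 and 13.6 CPM in the CSA libraries. No library of 1 regimen overlapped another's, with the combination highest and VEN lowest. The log2 fold change was 1.18 (SE 0.19) against VEN, with an adjusted p of 0.168 by edgeR's quasi-likelihood test, and 0.54 (SE 0.19) against CSA. By DESeq2 it was 1.17 (SE 0.24) against VEN with an adjusted p of 0.000202. Without VEN replicate 2 the value against VEN was 1.06 (SE 0.16) with an adjusted p of 0.0845 by edgeR's quasi-likelihood test. DNAJB9 overlaps THAP5 and PNPLA8 on the other strand, and no source used here says whether counting used strand, so reads of these genes cannot be told apart. THAP5 itself was at 29.9 and 33.3 CPM in VEN+CSA libraries, against 24.8 and 46.7 CPM in VEN libraries and 19.2 and 24.0 CPM in CSA libraries, with a log2 fold change of -0.17 in VEN+CSA against VEN, opposite in sign to DNAJB9, and 0.55 against CSA, close to that of DNAJB9. Besides HSP90B1, which overlaps C12orf73, 13 members overlap a protein-coding gene on the other strand.

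HYOU1 (chr11:119044189-119057202, minus strand), a large HSP70 relative that exchanges nucleotide on HSPA5, was at 530.3 and 600.4 CPM in VEN+CSA libraries, against 459 and 363 CPM in VEN libraries and 418 and 401 CPM in CSA libraries. The combination lay above both drugs, while the VEN libraries lay on either side of the CSA libraries. Its log2 fold change was 0.46 (SE 0.18, adjusted p = 0.444 by edgeR's quasi-likelihood test) against VEN and 0.47 (SE 0.18) against CSA, and 0.31 (SE 0.12) against VEN without VEN replicate 2. HSPA5, the central chaperone, was at 1089 and 1076 CPM in VEN+CSA libraries, against 950.1 and 861 CPM in VEN libraries and 969 and 996 CPM in CSA libraries. The groups of HSPA5 did not overlap, but the differences were small: 0.26 (SE 0.15) against VEN and 0.14 (SE 0.15) against CSA on the log2 scale. DNAJB11 (ERdj3), a soluble J-domain cofactor of HSPA5, was at 115 and 131 CPM in VEN+CSA libraries, against 99.8 and 100.1 CPM in VEN libraries and 99.6 and 106 CPM in CSA libraries. Its combination libraries lay above all others, with a log2 fold change of 0.30 (SE 0.15) against VEN and 0.26 (SE 0.15) against CSA.

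The other chaperones and cofactors differed less between regimens or more between libraries. DNAJC3 (p58IPK), an HSPA5 cofactor, was at 113 and 96.4 CPM in VEN+CSA libraries, against 85.7 and 101 CPM in VEN libraries and 85.7 and 85.5 CPM in CSA libraries. SIL1, the other nucleotide exchange factor of HSPA5, was at 31.6 and 35.3 CPM in VEN+CSA libraries, against 28.1 and 21.2 CPM in VEN libraries and 33.8 and 30.1 CPM in CSA libraries. For DNAJC3 the combination overlapped VEN and lay above CSA, and for SIL1 it lay above VEN and overlapped CSA. HSP90B1 (GRP94), the HSP90 of the ER, was at 1004 and 1053 CPM in VEN+CSA libraries, against 859.8 and 1391 CPM in VEN libraries and 831 and 909.7 CPM in CSA libraries. SDF2L1, a cofactor that keeps substrates soluble with HSPA5, was at 35.4 and 23.0 CPM in VEN+CSA libraries, against 38.5 and 13.5 CPM in VEN libraries and 41.2 and 32.2 CPM in CSA libraries. VEN replicate 2 was the highest of all libraries for HSP90B1 and the lowest for SDF2L1, so the VEN comparisons of both rest on it. Without it HSP90B1 in VEN+CSA against VEN was 0.26 rather than -0.13, a change of sign.

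**Figure D4:**
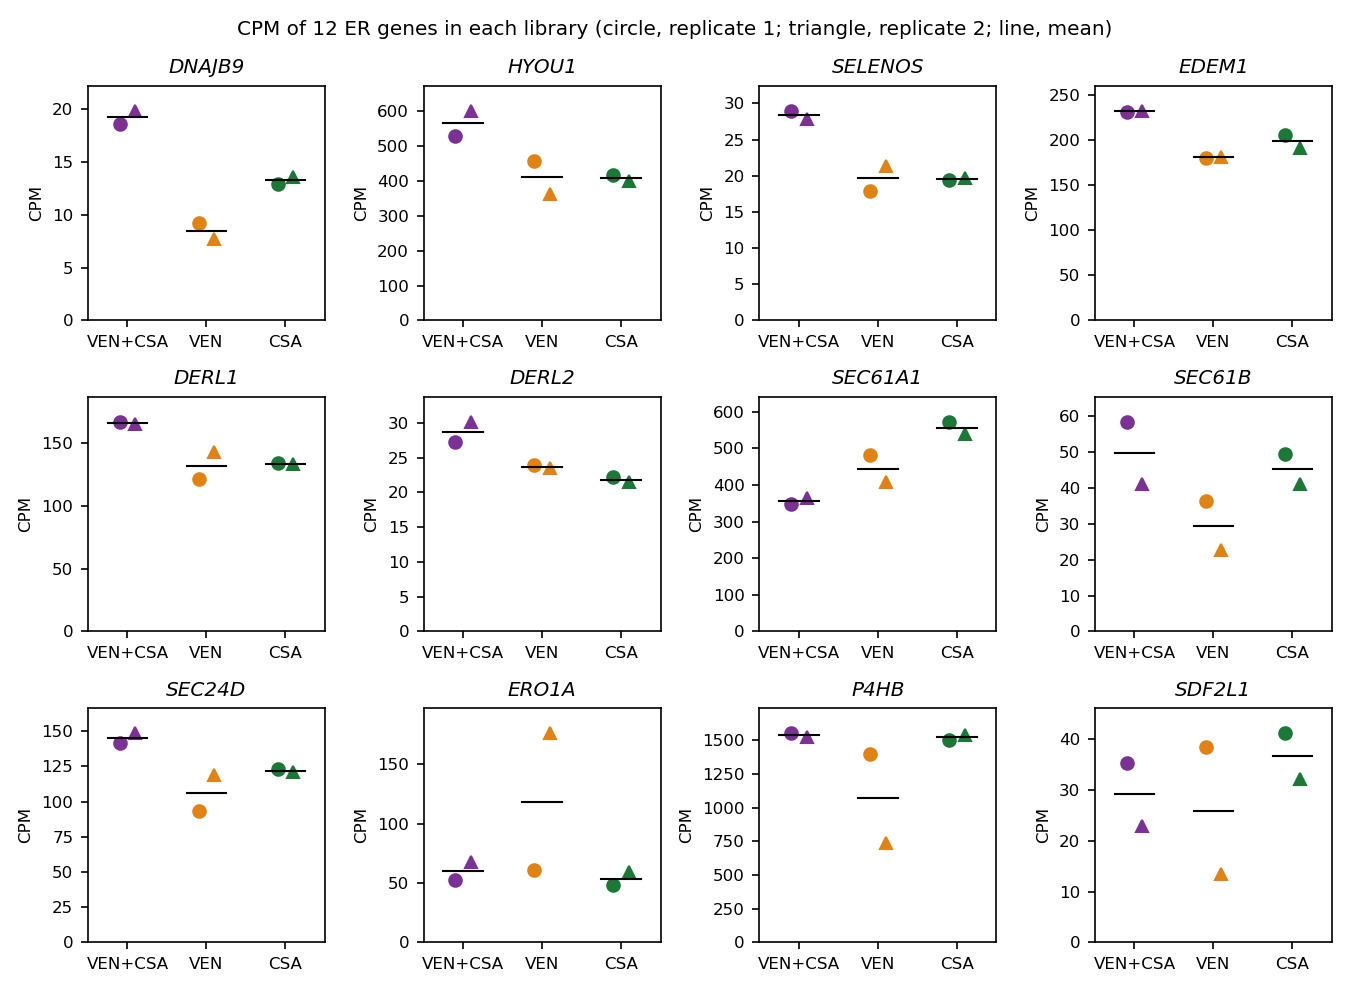
CPM of 12 members in each library (circle, replicate 1; triangle, replicate 2; line, group mean), with every axis starting at 0. The VEN+CSA points lie above the others for DNAJB9 (18.6 and 19.8 CPM), HYOU1, SELENOS, EDEM1, DERL1, DERL2 and SEC24D and below them for SEC61A1, while the VEN points lie far apart for ERO1A, P4HB and SDF2L1.

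The lectin chaperones differed little between regimens. Calnexin (CANX), the membrane-bound lectin, was at 1066 and 1002 CPM in VEN+CSA libraries, against 862 and 909 CPM in VEN libraries and 942 and 976 CPM in CSA libraries. Its soluble partner calreticulin (CALR) was at 1559 and 1775 CPM in VEN+CSA libraries, against 1667 and 1937 CPM in VEN libraries and 1429.8 and 1548 CPM in CSA libraries. CANX was higher in both combination libraries than in any other, and CALR overlapped VEN and lay above CSA. The log2 fold change against VEN was 0.22 (SE 0.15) for CANX and -0.11 (SE 0.18) for CALR, and CALR was at 0.0039 without VEN replicate 2. MANF, a secreted factor that binds HSPA5 and is released under ER stress, was at 103 and 113 CPM in VEN+CSA libraries, against 92.7 and 98.4 CPM in VEN libraries and 89.7 and 102 CPM in CSA libraries, with a log2 fold change of 0.18 (SE 0.16) against VEN.

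The 10 members of disulfide chemistry had no value with an unadjusted p under 0.05 in any of the 3 comparisons of the 6-library fit, and several were set by VEN replicate 2. P4HB (PDI), the most abundant isomerase, was at 1555 and 1524 CPM in VEN+CSA libraries, against 1403 and 739.6 CPM in VEN libraries and 1505 and 1543 CPM in CSA libraries. ERO1A, the oxidase that recharges P4HB and a known hypoxia-responsive gene, was at 52.4 and 67.6 CPM in VEN+CSA libraries, against 60.5 and 176 CPM in VEN libraries and 48.5 and 58.9 CPM in CSA libraries. VEN replicate 1 lay near the other groups for both genes, and VEN replicate 2 stood far below for P4HB and far above for ERO1A. The log2 difference of VEN replicate 2 from replicate 1 was 1.54 for ERO1A, the widest among the members, and -0.92 for P4HB. Log2 fold changes of the 10 members in VEN+CSA against VEN ran from -0.98 to 0.52.

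Of the other isomerases, PDIA4 was at 316 and 291 CPM in VEN+CSA libraries, against 270.3 and 180.2 CPM in VEN libraries and 284 and 282 CPM in CSA libraries. PDIA3, the isomerase that works with calnexin and calreticulin, was at 733 and 787 CPM in VEN+CSA libraries, against 537 and 765 CPM in VEN libraries and 598 and 609.6 CPM in CSA libraries. PDIA4 was above both drugs in both combination libraries, and PDIA3 was above CSA but overlapped VEN. PDIA3 has the named pseudogenes PDIA3P1 and PDIA3P2, so its count could be split or inflated. DNAJC10 (ERdj5), a reductase that opens disulfides before degradation, was at 56.9 and 53.4 CPM in VEN+CSA libraries, against 38.1 and 57.1 CPM in VEN libraries and 38.7 and 44.9 CPM in CSA libraries. The log2 fold change in VEN+CSA against VEN was 0.22 (SE 0.21) for PDIA3 and 0.21 (SE 0.23) for DNAJC10. Without VEN replicate 2 it was 0.51 (SE 0.10, adjusted p = 0.154) for PDIA3 and 0.54 (SE 0.15, adjusted p = 0.207) for DNAJC10 by edgeR's quasi-likelihood test. PDIA5 was at 53.6 and 60.7 CPM in VEN+CSA libraries, against 45.4 and 45.2 CPM in VEN libraries and 53.2 and 54.7 CPM in CSA libraries, and PDIA6 was at 403 and 435 CPM in VEN+CSA libraries, against 382 and 493 CPM in VEN libraries and 383 and 388 CPM in CSA libraries. PDIA5 in the combination lay above VEN only, and PDIA6 lay above CSA only.

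CRELD2, a stress-induced isomerase-like protein, was at 39.3 and 37.1 CPM in VEN+CSA libraries, against 39.7 and 26.6 CPM in VEN libraries and 40.6 and 36.4 CPM in CSA libraries. Its relative CRELD1 was at 7.65 and 5.74 CPM in VEN+CSA libraries, against 7.56 and 4.30 CPM in VEN libraries and 8.33 and 6.30 CPM in CSA libraries. ERO1B, the second ER oxidase, was at 1.74 and 1.64 CPM in VEN+CSA libraries, against 1.63 and 2.97 CPM in VEN libraries and 1.69 and 1.41 CPM in CSA libraries. The regimens overlapped for all 3 genes.

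At the translocation channel, 2 subunits of 1 complex stood on opposite sides of the single drugs in the means. SEC61A1 (chr3:128051641-128071683, plus strand), which forms the pore, was at 347 and 365 CPM in VEN+CSA libraries, against 481 and 409 CPM in VEN libraries and 572 and 540.3 CPM in CSA libraries. It was the only member whose 2 combination libraries lay below the other 4, and VEN lay between the combination and CSA with no overlap. Its log2 fold change was -0.64 (SE 0.16, adjusted p = 0.996 by edgeR's quasi-likelihood test) against CSA and -0.32 (SE 0.16) against VEN, or -0.43 (SE 0.10) against VEN without VEN replicate 2. MGLL and RUVBL1 overlap it on the other strand; RUVBL1 was at 166 and 151 CPM in VEN+CSA libraries, against 159 and 124 CPM in VEN libraries and 176 and 161 CPM in CSA libraries. The groups of RUVBL1 overlapped in both comparisons of the combination with VEN and CSA.

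SEC61B, the small tail-anchored subunit of the same channel, was at 58.4 and 41.2 CPM in VEN+CSA libraries, against 36.4 and 22.6 CPM in VEN libraries and 49.5 and 41.2 CPM in CSA libraries. The combination lay above VEN and overlapped CSA, with a log2 fold change of 0.75 (SE 0.30) against VEN, or 0.46 (SE 0.25) without VEN replicate 2. SEC24D, a cargo adaptor of the COPII coat that buds vesicles from the ER, was at 141 and 149 CPM in VEN+CSA libraries, against 93.2 and 119 CPM in VEN libraries and 123 and 121 CPM in CSA libraries. Both combination libraries lay above all others. SEC24D had a log2 fold change of 0.45 (SE 0.17) against VEN, 0.64 (SE 0.11, adjusted p = 0.105 by edgeR's quasi-likelihood test) without VEN replicate 2, and 0.25 (SE 0.17) against CSA.

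Within ERAD, 7 of 11 members were higher and 4 lower in VEN+CSA than in VEN (median 0.27 on the log2 scale), and 8 were higher and 3 lower than in CSA (median 0.06). SELENOS (VIMP, chr15:101270817-101277500, minus strand), which recruits the extraction ATPase VCP to the membrane, was at 28.9 and 27.8 CPM in VEN+CSA libraries, against 17.9 and 21.4 CPM in VEN libraries and 19.4 and 19.6 CPM in CSA libraries. The combination stood above 2 groups that lay at about the same level. The log2 fold change of SELENOS was 0.53 (SE 0.18, adjusted p = 0.406 by edgeR's quasi-likelihood test) against VEN and 0.54 (SE 0.18) against CSA, and 0.67 (SE 0.14) against VEN without VEN replicate 2. The Derlins line the retrotranslocation channel. DERL1 was at 167 and 166 CPM in VEN+CSA libraries, against 122 and 143 CPM in VEN libraries and 135 and 133 CPM in CSA libraries. DERL2 was at 27.3 and 30.1 CPM in VEN+CSA libraries, against 23.9 and 23.5 CPM in VEN libraries and 22.2 and 21.5 CPM in CSA libraries. DERL3 was at 11.9 and 10.6 CPM in VEN+CSA libraries, against 15.1 and 8.49 CPM in VEN libraries and 14.3 and 14.9 CPM in CSA libraries. Both DERL1 and DERL2 were above all single-drug libraries, with log2 fold changes of 0.31 (SE 0.15) and 0.39 (SE 0.16) against CSA, while DERL3 lay below CSA at -0.37 (SE 0.30). TBC1D31 overlaps DERL1 and MIS12 overlaps DERL2 on the other strand, and reads of such genes cannot be told apart here. TBC1D31 and MIS12 had log2 fold changes in VEN+CSA of 0.30 and 0.66 against CSA and of -0.42 and -0.10 against VEN.

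The EDEM proteins, which trim mannose from misfolded glycoproteins, differed in how far apart the VEN libraries lay. EDEM1 was at 232 and 232 CPM in VEN+CSA libraries, against 180.3 and 181 CPM in VEN libraries and 206 and 191 CPM in CSA libraries. EDEM2 was at 35.01 and 30.1 CPM in VEN+CSA libraries, against 25.9 and 17.4 CPM in VEN libraries and 33.0 and 29.7 CPM in CSA libraries. EDEM3 was at 134 and 141 CPM in VEN+CSA libraries, against 152 and 200.3 CPM in VEN libraries and 130.2 and 133 CPM in CSA libraries. EDEM1 had the smallest difference between the VEN libraries among the ERAD members, with a log2 fold change of 0.36 (SE 0.14) in VEN+CSA against VEN and 0.37 (SE 0.11) without that library. EDEM2 had a log2 fold change of 0.59 (SE 0.24) against VEN, or 0.34 (SE 0.17) without VEN replicate 2. EDEM3 had a log2 fold change of -0.36 (SE 0.18) against VEN, or -0.14 (SE 0.10) without that library.

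HERPUD1, a membrane scaffold that gathers ERAD components, was at 42.2 and 28.8 CPM in VEN+CSA libraries, against 27.5 and 21.6 CPM in VEN libraries and 34.97 and 34.9 CPM in CSA libraries. It was higher in the combination than in VEN, and the combination libraries lay on either side of the CSA libraries. SEL1L, the adaptor of the ligase complex, was at 155 and 156 CPM in VEN+CSA libraries, against 139 and 155 CPM in VEN libraries and 149 and 142 CPM in CSA libraries. SYVN1 (HRD1), the ligase, was at 64.9 and 51.3 CPM in VEN+CSA libraries, against 53.5 and 68.0 CPM in VEN libraries and 62.9 and 70.7 CPM in CSA libraries. OS9, a lectin of the same complex, was at 205 and 207 CPM in VEN+CSA libraries, against 189.8 and 235 CPM in VEN libraries and 237 and 197 CPM in CSA libraries. SYVN1 and OS9 overlapped between the regimens and turned from lower to higher in VEN+CSA against VEN without VEN replicate 2 (0.12 each on the log2 scale), and SEL1L lay above CSA by 0.10 (SE 0.15) on the log2 scale.

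Between the single drugs, VEN was higher than CSA for 13 members and lower for 22, and the median over the members was -0.11 on the log2 scale (-0.00 over all genes tested). That median was -0.072 without VEN replicate 2 and -0.041 without VEN replicate 1. No member had an adjusted p under 0.05 by edgeR's quasi-likelihood test (0% of genes tested), DESeq2 or limma-voom. At an unadjusted p under 0.05, 0 members were higher, against 2.34% of all genes, and DNAJB9 was lower at -0.64 (SE 0.19), against 2.46%. The libraries did not overlap for 5 members higher in VEN, against 20.8% of all genes, and for 13 lower, against 19.9%. When VEN was represented by its replicate 2 alone, 13 members had an adjusted p under 0.05 by edgeR's quasi-likelihood test, against 33.8% of all genes, among them ERO1A at 1.71 (SE 0.20), SDF2L1 at -1.45 (SE 0.33), P4HB at -1.04 (SE 0.11) and SEC61A1 at -0.45 (SE 0.11). Represented by its replicate 1 alone, VEN against CSA had 0 such members and 2 at an unadjusted p under 0.05, against 4.78% of all genes: SEC24D at -0.39 (SE 0.10) and DNAJB9 at -0.53 (SE 0.16). The unadjusted count was 19 without VEN replicate 1, against 47.4% of all genes, and 0 without CSA replicate 1 (1.7% of all genes) or CSA replicate 2 (2.12%). VEN replicate 2 was the lowest of the 6 libraries for 14 members, the highest for 7 and inside the range for 14.

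The members can be set side by side by whether their promoter window holds an ER stress element. The 10 members with an ERSE or ERSE-II match had median log2 fold changes of 0.18 in VEN+CSA against VEN, 0.12 against CSA and -0.05 in VEN against CSA. The 21 members with a promoter window and no such match had medians of 0.27, 0.10 and -0.13. Without VEN replicate 2 the medians in VEN+CSA against VEN were 0.17 with a match and 0.25 with none, and in VEN against CSA 0.0088 and -0.13. Of the 3 promoters printed whole, that of HYOU1 carried 2 ERSE-II copies, while those of DNAJB9 and SELENOS held CCACG alone, and the log2 fold change of DNAJB9 in VEN+CSA against VEN was the largest of the 35. These are descriptions of groups of genes, and no difference between them was tested.

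Among 6 further lists of ER genes, no gene had an adjusted p under 0.05 in the 6-library fit. The largest log2 fold change of a single gene in VEN+CSA against VEN was that of DDIT3, a regulator of the unfolded protein response. The median of the 10 regulators was 0.18 against VEN, below those of 3 other lists (0.23, 0.25 and 0.32), and 0.16 against CSA. At an unadjusted p under 0.05, 3 regulators were higher and 0 lower than in VEN, against 5.33% and 5.48% of all genes. DDIT3 (CHOP), a transcription factor of prolonged ER stress, was at 13.0 and 11.9 CPM in VEN+CSA libraries, against 4.37 and 4.30 CPM in VEN libraries and 10.6 and 9.004 CPM in CSA libraries. PPP1R15A (GADD34), a phosphatase subunit that reverses eIF2 alpha phosphorylation, was at 113 and 122 CPM in VEN+CSA libraries, against 59.4 and 56.5 CPM in VEN libraries and 84.3 and 86.6 CPM in CSA libraries. ATF4, the factor upstream of both, was at 563 and 568 CPM in VEN+CSA libraries, against 353 and 271 CPM in VEN libraries and 479.8 and 483 CPM in CSA libraries. All 3 were in the order combination, CSA, VEN without overlap. DNAJB9, HSPA5, CANX, PDIA4, SEC24D and EDEM1 were in the same order without overlap. In the group means alone, 15 of the 35 members had that order. The share of all genes in this order was not counted. In VEN+CSA against VEN their log2 fold changes were 1.52 (SE 0.20, adjusted p = 0.111), 1.02 (SE 0.15, adjusted p = 0.139) and 0.86 (SE 0.18, adjusted p = 0.228) by edgeR's quasi-likelihood test. Without VEN replicate 2 they were 1.51, 0.99 and 0.69. The other 7 regulators (ERN1, EIF2AK3, ATF6, ATF6B, XBP1, MBTPS1 and MBTPS2) had log2 fold changes between -0.01 (ATF6) and 0.30 (ATF6B) against VEN and none with an unadjusted p under 0.05 in any comparison, and between 0.076 (XBP1) and 0.23 (ERN1) against VEN without VEN replicate 2. XBP1, whose total count does not separate its spliced form, was at 188 and 183 CPM in VEN+CSA libraries, against 176 and 142 CPM in VEN libraries and 188 and 190.5 CPM in CSA libraries.

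Elsewhere in the ER, 20 of 21 listed folding and glycoprotein genes were tested (UGGT2 was not), and 3 were higher and 0 lower in VEN+CSA than in VEN at an unadjusted p under 0.05, against 5.33% and 5.48% of all genes. The largest was HSPA13, an HSP70-like ATPase of the ER, at 83.0 and 72.5 CPM in VEN+CSA libraries, against 42.2 and 43.8 CPM in VEN libraries and 59.5 and 57.2 CPM in CSA libraries. The others were PRKCSH, the beta subunit of glucosidase II, at 0.70 (SE 0.24) or 0.41 without VEN replicate 2, and the prolyl isomerase FKBP2, at 0.44 (SE 0.18), on the log2 scale. The median of the list was 0.23 against VEN, or 0.17 without VEN replicate 2, and 0.16 against CSA.

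Other genes of ER entry gave a median of 0.25 in VEN+CSA against VEN, with 15 higher and 6 lower, and 0.28 against CSA. In the comparison with CSA all 21 were higher, the smallest being SSR2 at 0.0017, while 6303 of all 12690 genes were higher. Of the 21, 2 had an unadjusted p under 0.05 there, against 1.95% of all genes in that direction. Without VEN replicate 2, 8 had an unadjusted p under 0.05 against CSA (6.25% of all genes) and 7 against VEN (8.28%), all of them higher. The 2 in the 6-library fit were SRP14, a subunit of the signal recognition particle, at 0.92 (SE 0.35), and SPCS3, a subunit of signal peptidase, at 0.41 (SE 0.17). The 2 against VEN, where 5.33% of all genes were called higher, were SEC11C, a signal peptidase catalytic subunit, at 0.62 (SE 0.15), and SRPRB, a subunit of the signal recognition particle receptor, at 0.55 (SE 0.19). Against CSA, the direction of this list was opposite to that of SEC61A1. SRP14 was also the 1 gene of the list with an unadjusted p under 0.05 in VEN against CSA, at 1.13 (SE 0.35), or 0.59 without VEN replicate 2.

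The 10 oligosaccharyltransferase genes, which attach N-glycans, had a median of 0.32 in VEN+CSA against VEN and 0.14 against CSA. Without VEN replicate 2 the median against VEN was 0.25. OSTC was at 79.1 and 74.4 CPM in VEN+CSA libraries, against 53.8 and 44.3 CPM in VEN libraries and 45.5 and 51.8 CPM in CSA libraries, and the catalytic subunit STT3A had a log2 fold change of 0.35 (SE 0.14) against VEN. The 21 other ERAD genes and the 10 other COPII genes had medians of -0.04 and -0.00 against VEN and 0.05 and 0.05 against CSA, and the ERAD median against VEN was 0.050 without VEN replicate 2. Among the COPII genes, 0 were higher at an unadjusted p under 0.05 in VEN+CSA against VEN (5.33% of all genes). In VEN+CSA against CSA 1 was higher (1.95%), and in VEN against CSA 1 was higher (2.34%). These were SAR1B, the GTPase that starts the coat, at 0.53 (SE 0.19), and SEC24A, a paralog of SEC24D, at 0.83 (SE 0.32), in that order and on the log2 scale. SEC24A was at 0.29 without VEN replicate 2, where no COPII gene had an unadjusted p under 0.05 in VEN against CSA.

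**Figure D5:**
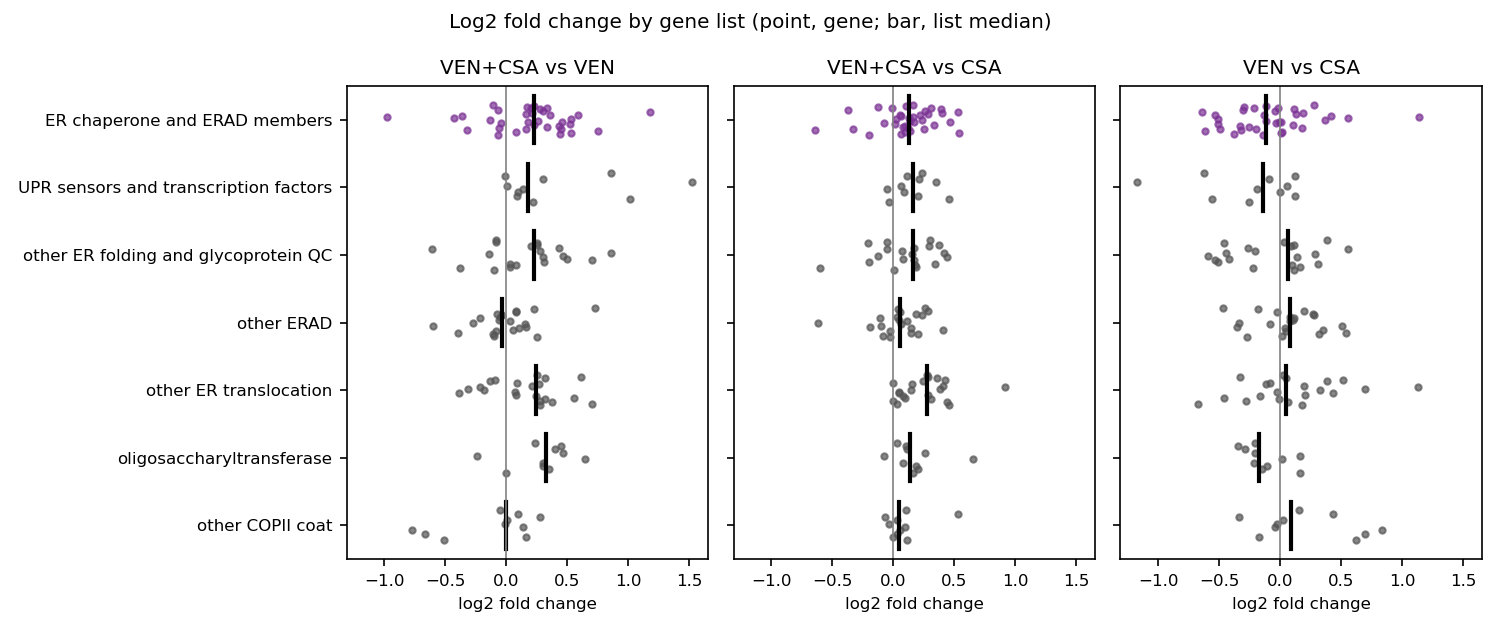
Log2 fold change of each gene (point) in the 35 members and in 6 further ER gene lists, with the list median as a bar, for the 3 comparisons. The member medians are 0.22, 0.13 and -0.11, and the 3 points farthest right in the regulator list of the left panel are DDIT3, PPP1R15A and ATF4.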

How the data were processed

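The authors deposited 1 table of whole-number counts per Ensembl gene, not normalized. Paired reads of 150 bases came from KAPA RNA HyperPrep libraries, per the labels' protocols. STAR, RSEM, DESeq2 and hg38 are named per the submitters' processing notes, without roles or versions; no source used here gives the strand setting. Between 64.8% and 66.7% of counts from 1 to 20 were even, against 49.0% to 51.0% of counts from 100 up, and the cause was not tested. 2 columns that match no labelled sample were not used.

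Groups were taken from the sample titles. Of the identifiers, 20148 were paired with a symbol and 20224 with GENCODE 29. edgeR 4.0.16 (R 4.3.3; TMM, filterByExpr, robust quasi-likelihood fit, group as the only term, 3 residual degrees of freedom) was run on all 6 libraries and 12690 genes, with Benjamini-Hochberg adjustment over all genes and a threshold of 0.05; standard errors are the absolute log2 fold change over the square root of F. Alternatives used DESeq2 1.42.0, limma-voom 3.58.1, other scalings and filters, a replicate block and each library left out; the scripts were tested on simulated data. Values with 2 libraries a group have the precision that this n allows. The rule for full values picked members with an adjusted p under 0.05 in any fit with 1 library left out or among the 8 smallest p of a comparison. CPM per library is given for all members, but the log2 fold change is not printed for every picked member. From the further lists, up to 3 genes a comparison with an unadjusted p under 0.05, and all regulators, are named; 1 such gene is not reported here. Members, lists and rules were chosen with earlier results of these data known. Promoter positions count from each RefSeq start.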

Additional observations from a re-analysis of the deposited data

How the results depend on the processing

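Counts of members with an adjusted p under 0.05 were 0 in all 3 comparisons, and 0 under each alternative run except that DESeq2 gave 1 in VEN+CSA against VEN and that leaving out 1 library gave 0 to 11 there and 0 to 13 in VEN against CSA, the upper values without VEN replicate 1. Over all genes, edgeR called 0 in each comparison, DESeq2 173 higher and 138 lower in VEN+CSA against VEN, 33 and 27 against CSA and 25 and 38 in VEN against CSA. At an unadjusted p under 0.05, the 6 members in VEN+CSA against VEN were 1 when only the 4 compared libraries were fitted and 1 to 18 with 1 library left out. The 4 members against CSA were 0 with library size alone as scaling and 13 with the 4 compared libraries. Library size alone called 94 of all 12690 genes higher and 86 lower. The fit of the 4 compared libraries called 806 of all 12565 genes higher and 733 lower against CSA. In VEN+CSA against VEN, where 1 member was called, that fit called 399 of all 12455 genes higher and 359 lower. The 1 member in VEN against CSA was 0 with library size alone, 2 with DESeq2, 2 with no filter and 0 to 19 with 1 left out. At the same threshold in VEN against CSA, library size alone called 38 of all 12690 genes higher and 263 lower. DESeq2 called 584 of all 12690 genes higher and 316 lower there, and no filter 414 of all 15607 genes higher and 363 lower. Median log2 fold changes in VEN+CSA against VEN were 0.22 to 0.29 with 1 library left out, 0.25 by limma-voom and 0.51 with library size alone. Against CSA they were 0.12 to 0.15 and, with library size alone, 0.084, and in VEN against CSA -0.12 to -0.041 and -0.41. Library size alone moved the median of all genes to 0.26, -0.04 and -0.31, so that relative to it the members were at 0.25, 0.13 and -0.10; it put 31, 26 and 3 members higher and 4, 9 and 32 lower in the 3 comparisons. Signs of log2 fold changes turned without VEN replicate 2 for 9 members in VEN+CSA against VEN and 11 in VEN against CSA, and with library size alone for 6 and 10 in those comparisons and 2 in VEN+CSA against CSA. Among the members that the rule for full values picks in a comparison, these were, without VEN replicate 2, CRELD2 and HSP90B1 in VEN+CSA against VEN (with 1 library left out, -0.050 to 0.52 and -0.44 to 0.26). Without VEN replicate 2 they were also CRELD2 (-0.54 to 0.038), DERL3 (-0.79 to 0.046), HSP90B1 (-0.024 to 0.67) and SDF2L1 (-1.45 to 0.062) in VEN against CSA. With library size alone it was HSP90B1, at 0.23 in VEN+CSA against VEN and -0.033 in VEN against CSA. The causes were not tested, and where 1 library is left out, the lone library is taken to vary like the other groups.

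With the replicate number as a block, no member had an adjusted p under 0.05, and the count at an unadjusted p under 0.05 was 9 (8 higher, 1 lower) in VEN+CSA against VEN, against 14.6% of all genes, and 6 in VEN against CSA, against 11.1%. Differences between same-numbered libraries correlated at 0.16 to 0.25 across groups, but only 2 numbers exist and no label says that they mark a shared culture, so the numbers were not taken to pair the libraries. With 2 libraries a group and 1 of them far from its partner, small differences were not detectable here.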
